A study of Homo sapiens with 6 samples.

Results

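Cyclic AMP is a second messenger made by adenylyl cyclases and broken down by phosphodiesterases. It acts mainly by freeing the catalytic subunits of protein kinase A (PKA) from regulatory subunits, which A-kinase anchoring proteins (AKAPs) hold at particular places in the cell. In the nucleus PKA phosphorylates CREB and its relatives ATF1 and CREM, which then recruit the acetyltransferases CREBBP and EP300 and the CRTC coactivators. In sympathetic neuroblasts, the lineage from which neuroblastoma arises, this pathway is known for its links to catecholamine synthesis and neuronal differentiation. The genes described here are those of the deposited count table whose symbols name these enzymes, kinase subunits, anchors and factors. The symbol rule found 76 of 19868 entries, which are 75 genes, since PDE3B has a second entry with 2 counts in all.

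RNA was sequenced from NGP, a human neuroblastoma cell line. There were 3 libraries with knockdown of CAMKV (CAMKV-KD), named sh-CAMKV in the sample descriptions, and 3 with sh-control (Control). CAMKV encodes a pseudokinase of the calmodulin-dependent kinase family. All 6 libraries came from 100 ng of total RNA of cells grown in medium with 20% fetal bovine serum. The labels give neither the number of hairpins nor the number of cultures behind each group. The p-values therefore rest on library-to-library spread alone, which may be technical. In bulk RNA, a change in every cell and a change in the share of cells in a given state cannot be told apart.

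CAMKV itself had 25.4, 23.2 and 25.4 CPM (a gene's count relative to its library's TMM-scaled total) in the CAMKV-KD libraries, against 83.9, 77.3 and 84.6 CPM in the Control libraries. Library totals ran from 20238281 to 24701564 counts, and 3 counts corresponded to 0.121 to 0.145 CPM. Adrenergic neuroblastoma markers summed to 895 to 1201 CPM in CAMKV-KD and 1133 to 1383 CPM in Control libraries, with 3 of 7 lower and none called higher. HAND2, one of the other 4, lay the other way without being called, at 423, 271 and 251 CPM in CAMKV-KD against 217, 115 and 92.3 CPM in Control (log2 1.15 ± 0.39, SE; adjusted p = 0.0717). CHGA was lower and also not called (log2 −1.09, SE 0.34, adjusted p = 0.0563). It had 247, 268 and 110 CPM in CAMKV-KD against 442, 433 and 459 CPM in Control. The groups overlapped for GATA3 and DBH, and for neither HAND2 nor CHGA. Summed Schwann and glial markers stayed at or below 1.31 CPM in CAMKV-KD and 1.86 CPM in Control libraries, blood and endothelial markers at or below 1.45 CPM in CAMKV-KD and 1.42 CPM in Control, and SOX10, CD3E and KRT18 were listed at 0 in all 6. CD3E, KRT18 and other markers of these lists carry Ensembl identifiers, and 54.3% of such entries in the count table were at 0 throughout. Their low values are therefore not read as absence. Epithelial markers reached 3.66 CPM in CAMKV-KD and 2.34 CPM in Control. Stromal markers summed to 734 to 795 CPM in CAMKV-KD and 602 to 777 CPM in Control libraries, with 3 of 7 higher (LUM, COL1A1 and THY1) and 1 lower (PDGFRB). The part of marker changes in the results below was not tested.

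Of the 75 genes, 59 passed the filter on low counts and were tested. In CAMKV-KD libraries 11 were higher and 14 lower at an adjusted p under 0.05 in edgeR's quasi-likelihood test over 13361 genes, and 34 were not called. The called share was 42.4% of tested members, where 36.3% of all tested genes were called, with 17.3% higher and 19.0% lower. For 33 of 59 members, 55.9%, all CAMKV-KD libraries lay on one side of all Control libraries in CPM, against 52.8% of all tested genes. Called members with at least a 2-fold change numbered 7, or 11.9%, beside 8.25% of all tested genes. The median log2 fold change was −0.04 for the members and 0.00 for all tested genes, and the median of its absolute size was 0.38 and 0.34. As a list the members thus lay near the background, and the account below turns on single genes. Of the 16 untested members, 8 were at 0 in every library and 8 had at most 15 counts in any library.

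**Figure D1:**
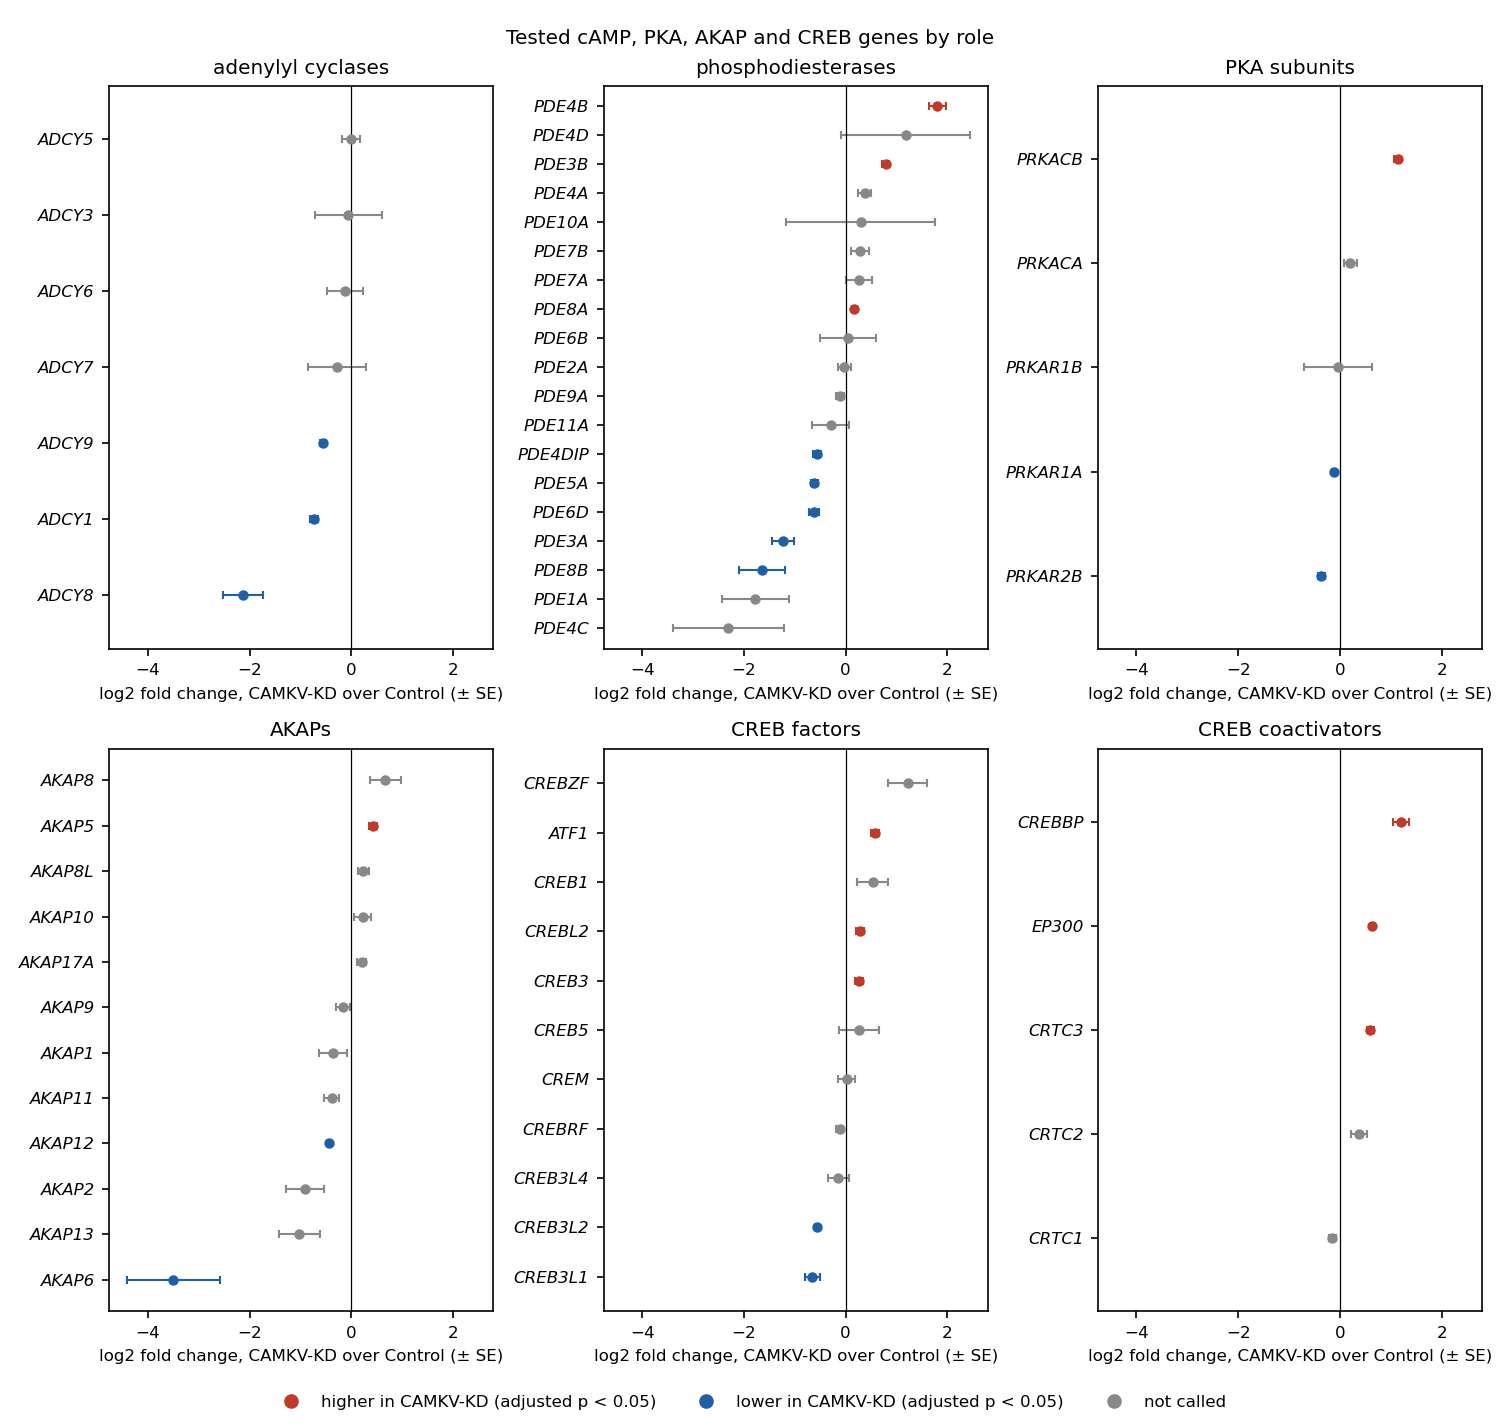
Log2 fold change (CAMKV-KD over Control, points, with SE bars) of the 59 tested members, by role, on a common axis. PDE4B has the highest value at 1.80 and AKAP6 the lowest at −3.50, and wide bars mark members with uneven libraries such as PDE10A and PDE4D.

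**Figure D2:**
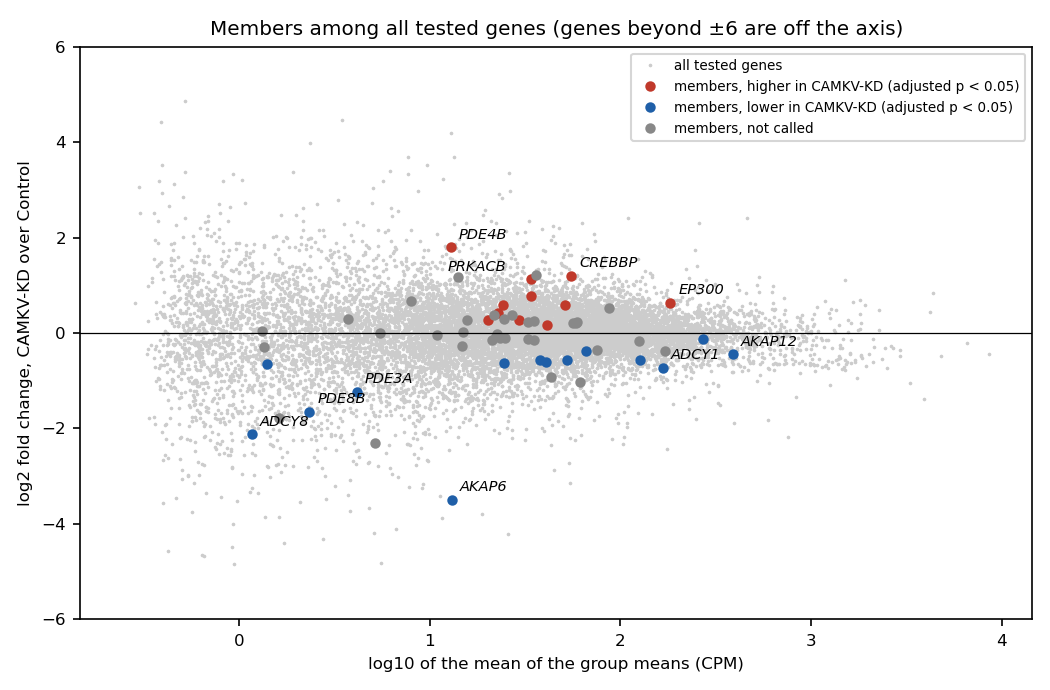
Each tested gene by the log10 of its mean CPM (x axis) and its log2 fold change (y axis, CAMKV-KD over Control), with all tested genes within the axis limits in pale grey and the 59 members as larger points. The members are spread through the cloud of all genes, and ADCY8, PDE8B and PDE3A, all called lower, lie at low CPM.

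Among the adenylyl cyclases, the enzymes that make cyclic AMP, 3 of 7 tested members fell and none rose, where 19.0% of all tested genes were lower and 17.3% higher. ADCY1, a calmodulin-stimulated cyclase of neurons, had 129, 116 and 132 CPM in CAMKV-KD libraries, against 217, 192 and 215 CPM in Control libraries. The groups were far apart, and the log2 fold change was −0.73 ± 0.074 (SE; adjusted p = 0.00145). ADCY8, the other calmodulin-stimulated cyclase of this kind, was scarce, at 0.242, 0.436 and 0.624 CPM in CAMKV-KD against 2.02, 2.29 and 1.39 CPM in Control. It rested on 6 to 14 counts per CAMKV-KD library and 31 to 50 counts per Control library, with a log2 fold change of −2.13 ± 0.39 (SE; adjusted p = 0.0106). ADCY9, a widely expressed cyclase, had 41.7, 42.0 and 44.1 CPM in CAMKV-KD against 63.0, 60.2 and 65.0 CPM in Control. Its fall was the most even of the 3, at −0.56 ± 0.051 on the log2 scale (SE; adjusted p = 0.00108).

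The other tested cyclases overlapped between the groups. ADCY5 and ADCY6, which calcium inhibits, were at 0.00 and −0.12 (log2), and ADCY7 was at −0.28 and ADCY3, of olfactory and other cilia, at −0.06. ADCY3 differed more within groups than between them, with 11.0 to 37.2 CPM in CAMKV-KD libraries and 11.9 to 40.8 CPM in Control libraries. ADCY2, ADCY4 and ADCY10, the soluble cyclase, were not tested. Per kb of exon, ADCY1 led the family in both groups, at 9.70 CPM per kb in CAMKV-KD and 16.1 CPM per kb in Control. ADCY9 came next, at 5.52 in CAMKV-KD and 8.12 in Control in the same unit, ahead of ADCY6 at 4.67 and 5.06. Summed over all 10 cyclases, CPM were 228, 255 and 239 in CAMKV-KD and 369, 313 and 372 in Control, a sum that long transcripts weigh on most. ADCY1 made up the largest part of it, with a mean of 125 CPM in CAMKV-KD and 208 CPM in Control.

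Phosphodiesterases moved both ways, with 3 of 19 tested members higher and 5 lower in CAMKV-KD. The called share, 42.1%, lay near the 36.3% of all tested genes, and opposite changes occurred inside the same subfamily. PDE4B, a cyclic AMP-specific phosphodiesterase, was the member with the largest called rise. It had 21.3, 18.5 and 20.3 CPM in CAMKV-KD libraries, against 4.63, 5.87 and 6.73 CPM in Control libraries. Every CAMKV-KD library was well above every Control library, a 3.49-fold difference (log2 1.80 ± 0.16, SE; adjusted p = 0.00103). As a share of the summed CPM of PDE4A, PDE4B, PDE4C and PDE4D, PDE4B made up 28.2 to 32.8% in CAMKV-KD and 9.32 to 17.4% in Control. The Control shares rest on an uneven sum. The lowest, 9.32%, is that of Control 1, where PDE4D was at 23.8 CPM, against 1.33 and 0.808 CPM in Control 2 and Control 3. PDE4C was at 0.496 CPM in Control 1, against 13.1 and 12.2 CPM.

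The pair of PDE3 enzymes, which cleave cyclic AMP and are inhibited by cyclic GMP, split. PDE3B had 43.1, 41.3 and 45.0 CPM in CAMKV-KD against 26.7, 23.8 and 24.5 CPM in Control, and rose by 0.79 ± 0.070 on the log2 scale (SE; adjusted p = 0.000995). PDE3A had 3.19, 2.03 and 2.18 CPM in CAMKV-KD against 6.32, 5.41 and 5.70 CPM in Control, and was at −1.23 ± 0.21 (log2 ± SE; adjusted p = 0.00815). The ratio of PDE3B to PDE3A in CPM was 13.5 to 20.6 in CAMKV-KD and 4.22 to 4.40 in Control, with no overlap. The high-affinity PDE8 enzymes split as well. PDE8B was low, at 1.74, 0.823 and 0.802 CPM in CAMKV-KD against 3.97, 2.11 and 4.53 CPM in Control (log2 −1.65 ± 0.45, SE; adjusted p = 0.0377), and was no longer called without CAMKV-KD 2, CAMKV-KD 3, Control 1 or Control 3, with adjusted p up to 0.109. GENCODE 29 places another gene on the same strand over 2889 exon bases of PDE8B. PDE8A was higher by 0.17 (adjusted p = 0.0414), a call lost whichever library was dropped.

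Of the cyclic GMP enzymes, PDE5A had 33.1, 32.4 and 31.3 CPM in CAMKV-KD against 50.6, 51.2 and 46.4 CPM in Control (log2 −0.61 ± 0.060, SE; adjusted p = 0.00134). PDE6D, a carrier of prenylated proteins named as a subunit of the retinal phosphodiesterase, had 17.0, 20.1 and 20.7 CPM in CAMKV-KD against 29.8, 28.8 and 30.2 CPM in Control (log2 −0.62 ± 0.093, SE; adjusted p = 0.00537). Neither gene overlapped between the groups. PDE4DIP (myomegalin), a protein of the Golgi and centrosome that binds PDE4D, had 32.6, 30.7 and 28.4 CPM in CAMKV-KD against 45.2, 47.5 and 42.6 CPM in Control (log2 −0.56 ± 0.077, SE; adjusted p = 0.00396). PDE4DIP is known to have related copies in the genome, so its reads may be split between entries.

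The remaining 11 tested phosphodiesterases were not called. PDE4A was at 0.37 ± 0.12 (log2 ± SE; adjusted p = 0.0671), with no overlap between groups, and passed without CAMKV-KD 1, with library totals and in DESeq2. PDE1A, a calmodulin-activated enzyme, had 1.45, 0.339 and 0.357 CPM in CAMKV-KD against 2.07, 3.63 and 1.84 CPM in Control (adjusted p = 0.0906), and passed without CAMKV-KD 1 (adjusted p = 0.0145) and in DESeq2. PDE7A, PDE7B, PDE9A, PDE2A, PDE6B and PDE11A lay between −0.30 and 0.29 (log2). PDE4D, PDE4C and PDE10A varied widely within a group. PDE4D was even in CAMKV-KD, at 21.2, 18.5 and 19.0 CPM, but had 23.8, 1.33 and 0.808 CPM in the Control libraries. Without Control 1 it was 4.19 higher on the log2 scale (adjusted p = 0.00272), and with all 6 libraries 1.18 (adjusted p = 0.521). PDE4C was the mirror image in Control 1, with 1.33, 2.23 and 1.65 CPM in CAMKV-KD against 0.496, 13.1 and 12.2 CPM in Control, and was called lower without that library (log2 −2.87). GENCODE 29 places other genes, 1 of them on the same strand, over exon bases of PDE4C, so its reads may be split. Summed gene by gene, the shared bases came to 5152, beside 5391 exon bases in PDE4C. A base shared with more than 1 gene counts more than once in that sum. PDE10A ranged from 2.23 to 64.7 CPM in CAMKV-KD and from 2.74 to 52.8 CPM in Control. PDE1B, PDE1C, PDE6A, PDE6C, PDE6G and PDE6H were not tested.

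**Figure D3:**
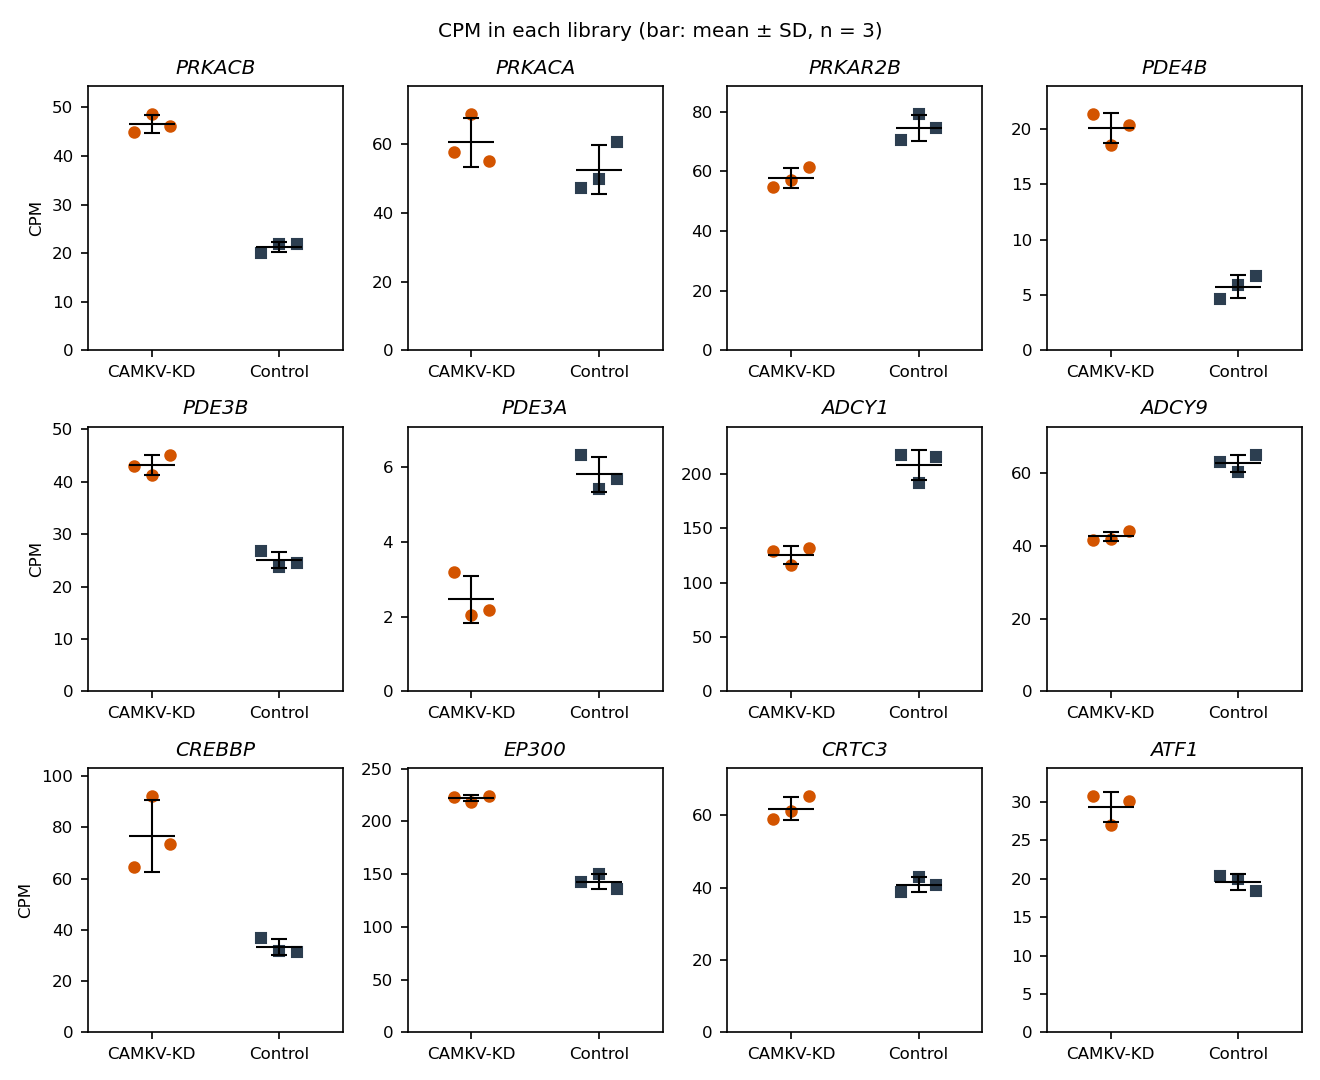
CPM per library (points, linear axis from 0) with mean ± SD (bars, n = 3) for 12 members, CAMKV-KD left and Control right in each panel. PRKACA overlaps between the groups and the other 11 do not, as in PRKACB with 44.8 to 48.6 CPM in CAMKV-KD and 20.0 to 21.9 CPM in Control.

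Of the 5 tested PKA subunit genes 1 rose and 2 fell, beside a background of 36.3% called. PRKACB, which encodes the beta catalytic subunit, had 44.8, 48.6 and 46.3 CPM in CAMKV-KD libraries, against 20.0, 21.9 and 21.9 CPM in Control libraries. Its level was 2.19-fold higher in CAMKV-KD (log2 1.13 ± 0.066, SE; adjusted p = 0.000319), with little spread in either group. PRKACA, the alpha catalytic subunit gene, had 57.7, 68.6 and 55.1 CPM in CAMKV-KD against 47.2, 49.7 and 60.6 CPM in Control and was not called (log2 0.20 ± 0.13, SE; adjusted p = 0.287). Per kb of exon PRKACA stayed above PRKACB, at 22.1 to 7.38 CPM per kb in CAMKV-KD and 19.2 to 3.37 CPM per kb in Control. PRKACB made up 41.4 to 45.6% of the CPM of both in CAMKV-KD and 26.5 to 30.6% in Control. PRKACG was at 0 in every library.

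Among the regulatory subunits, PRKAR2B, which docks to many AKAPs, had 54.8, 57.1 and 61.5 CPM in CAMKV-KD against 70.3, 79.1 and 74.5 CPM in Control (log2 −0.37 ± 0.068, SE; adjusted p = 0.0108). PRKAR1A, the most abundant PKA subunit gene per kb, averaged 259 ± 2.98 CPM in CAMKV-KD and 282 ± 8.55 CPM in Control (SD, n = 3). Its fall of 0.12 on the log2 scale (adjusted p = 0.0342) was no longer called with library totals or with the replicate number as a block. Of the 6 leave-one-out fits, only that lacking Control 1 kept the call. The adjusted p ran up to 0.172 over the alternatives. The locus of PRKAR1A is shared with ARSG, so reads may be split. PRKAR1B had 2.30 CPM in CAMKV-KD 1 but 15.0 and 15.0 CPM in the other CAMKV-KD libraries, against 9.73 to 11.8 CPM in Control, and was not called. PRKAR2A was listed at 0 in all 6 libraries. It carries an Ensembl identifier, as do all 8 members at 0, and 54.3% of such entries in the table were at 0 throughout, against 3.12% of entries with a StringTie locus identifier. A 0 for PRKAR2A is therefore not read as absence of the transcript. With PRKAR2A left aside, the CPM of PRKACA and PRKACB over that of the regulatory subunit genes was 0.321, 0.356 and 0.303 in CAMKV-KD and 0.189, 0.189 and 0.223 in Control.

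Of 12 tested AKAPs 1 rose and 2 fell, beside a background of 36.3% called. AKAP12 (gravin), a scaffold for PKA and PKC at the plasma membrane and the AKAP with the highest level per kb, averaged 329.9 ± 8.26 CPM in CAMKV-KD and 449 ± 15.4 CPM in Control (SD, n = 3). It fell by 0.44 ± 0.037 on the log2 scale (SE; adjusted p = 0.000787), with no overlap between libraries. AKAP5, a postsynaptic anchor that binds PKA and calcineurin, rose by 0.42 ± 0.080 (log2 ± SE; adjusted p = 0.0115), and averaged 26.2 ± 1.95 CPM in CAMKV-KD and 19.5 ± 0.671 CPM in Control (SD, n = 3). AKAP6, an anchor at the nuclear envelope of muscle cells and neurons, showed the lowest value of all members. It had 0.485, 4.50 and 1.43 CPM in CAMKV-KD against 10.5, 30.5 and 31.1 CPM in Control (log2 −3.50 ± 0.92, SE; adjusted p = 0.0337). The groups did not overlap, but each was uneven, and the call was lost without CAMKV-KD 1, CAMKV-KD 3, Control 2 or Control 3, with adjusted p up to 0.103.

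The other 9 tested AKAPs were not called. AKAP13 had 60.2, 40.5 and 21.9 CPM in CAMKV-KD against 62.9, 101 and 84.7 CPM in Control (log2 −1.02 ± 0.40, SE; adjusted p = 0.104), and passed in DESeq2. AKAP2 was at −0.91, AKAP11 at −0.39 and AKAP1, of the outer mitochondrial membrane, at −0.36 (log2). AKAP11 passed without Control 1, and AKAP2, whose exons lie within a read-through gene with PALM2, passed without CAMKV-KD 2. AKAP9, of the centrosome and Golgi, was at −0.16. AKAP10, AKAP17A, AKAP8L and AKAP8 lay between 0.21 and 0.67. AKAP8 passed without Control 2, and AKAP8 and AKAP8L carry the same locus identifier, so their reads may be split. AKAP3, AKAP4, AKAP7 and AKAP14 were not tested.

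**Figure D4:**
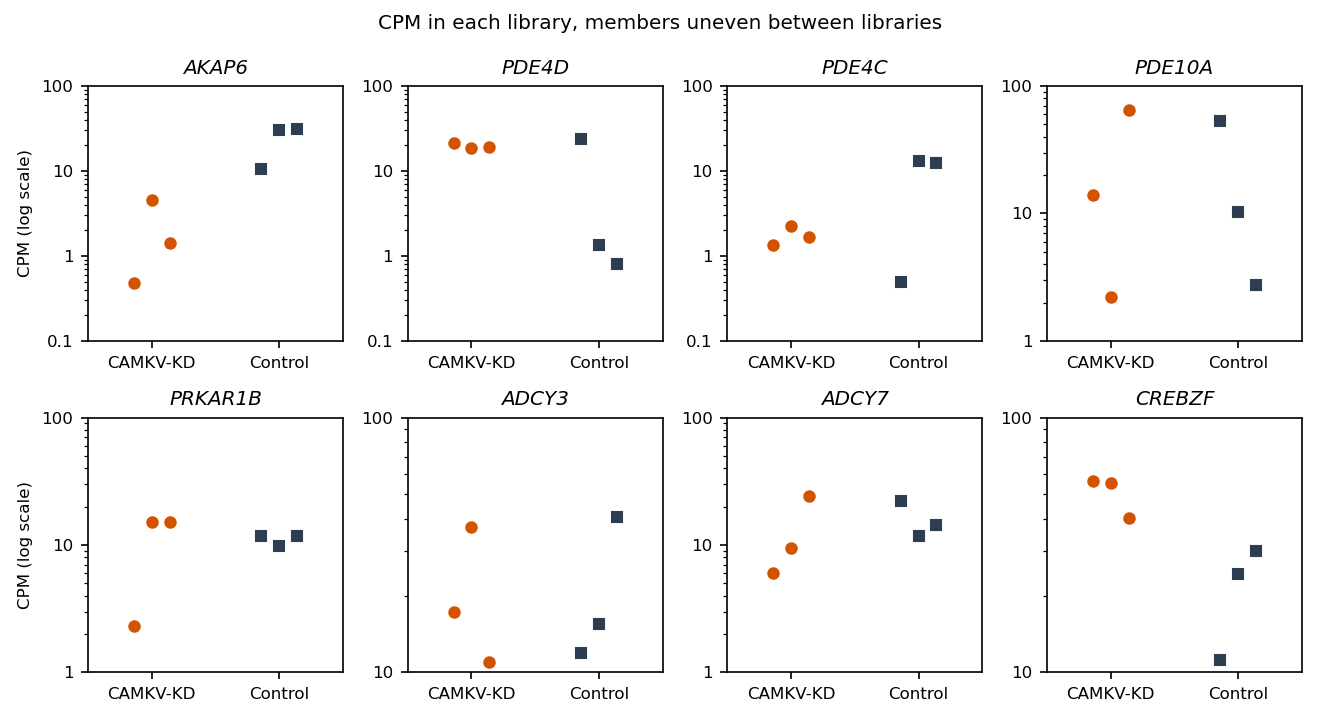
CPM per library (log axis) of 8 members with a wide spread within a group, CAMKV-KD left and Control right in each panel. Control 1 stands apart from Control 2 and Control 3 in PDE4D and PDE4C, and CAMKV-KD 1 from the other CAMKV-KD libraries in PRKAR1B.

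Of the factors that bind cyclic AMP response elements directly, ATF1 rose. It had 30.7, 27.0 and 30.1 CPM in CAMKV-KD libraries, against 20.3, 19.9 and 18.4 CPM in Control libraries (log2 0.58 ± 0.081, SE; adjusted p = 0.00409). CREB1, at 71.4, 141 and 95.8 CPM in CAMKV-KD and 62.9, 93.0 and 57.3 CPM in Control, had a similar log2 fold change of 0.53 but overlapping groups (SE 0.31; adjusted p = 0.245). CREM, whose gene also gives rise to inhibitory isoforms, was at 0.02 ± 0.16 (log2 ± SE; adjusted p = 0.941). Counts per gene do not separate those isoforms.

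The CREB3 family, membrane-bound factors cut free by proteolysis, had 1 of 4 tested members higher and 2 lower. CREB3L2 had 101, 104 and 102 CPM in CAMKV-KD against 154, 153 and 149 CPM in Control (log2 −0.57 ± 0.033, SE; adjusted p = 0.000303), among the most even changes of all members. CREB3L1 was near 1 CPM in CAMKV-KD, at 1.13, 1.02 and 1.11 CPM, against 1.65, 1.61 and 1.88 CPM in Control (log2 −0.65 ± 0.15, SE; adjusted p = 0.0210). Of the leave-one-out fits, the one lacking Control 2 kept the call and the other 5 lost it, with adjusted p up to 0.0785 over the alternatives. CREB3 rose by 0.27 (adjusted p = 0.0432) and lost its call whichever library was dropped. CREBL2, a basic leucine zipper gene, rose by 0.28 (adjusted p = 0.0322) and kept its call among those fits when CAMKV-KD 1 was dropped, losing it in the other 5. CREBZF, another basic leucine zipper gene, had 56.2, 55.6 and 40.3 CPM in CAMKV-KD against 11.2, 24.3 and 30.0 CPM in Control. Its groups did not overlap, but it was not called (log2 1.22 ± 0.38, SE; adjusted p = 0.0586), and it passed without Control 1, in DESeq2 and in limma-voom. CREB3L4, CREB5 and CREBRF lay between −0.14 and 0.27 (log2) and were not called, and CREB3L3 was not tested.

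Of the 5 coactivators of CREB 3 were higher and none lower in CAMKV-KD, where 17.3% of all tested genes were higher, and their median was 0.60 on the log2 scale. CREBBP, an acetyltransferase that binds phosphorylated CREB, had 64.7, 92.1 and 73.3 CPM in CAMKV-KD libraries, against 37.0, 31.7 and 31.3 CPM in Control libraries. It was 2.30-fold higher (log2 1.20 ± 0.15, SE; adjusted p = 0.00298). Its paralogue EP300 had 223, 219 and 224 CPM in CAMKV-KD against 142, 150.1 and 136 CPM in Control (log2 0.64 ± 0.045, SE; adjusted p = 0.000522). For both genes every CAMKV-KD library exceeded every Control library. CRTC3, a coactivator that enters the nucleus once dephosphorylated, had 58.8, 61.3 and 65.2 CPM in CAMKV-KD against 38.9, 42.8 and 40.8 CPM in Control (log2 0.60 ± 0.063, SE; adjusted p = 0.00170). CRTC2, at 0.38 ± 0.16 (log2 ± SE; adjusted p = 0.124), passed without CAMKV-KD 1 (adjusted p = 0.0456), and CRTC1 was at −0.15 ± 0.077 (log2 ± SE; adjusted p = 0.192). The summed CPM of the 5 genes was 391, 421 and 420.4 in CAMKV-KD and 262, 269.5 and 257 in Control.

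The cyclic AMP response element is the palindrome TGACGTCA, with TGACG as its half-site. Both were searched on both strands in windows from 250 bases before to 50 bases after RefSeq transcript starts (GRCh38.p14), which were found for 63 of the 75 genes. The half-site is part of the full motif, so its matches include the full ones. The full motif was present in 7 of 150 windows of the members (4.67%), 649 of 35116 windows of all genes (1.85%) and 2.70% of the windows of tested genes. The 7 windows belong to 5 genes, CREB3L2, CREM, PDE4A, PDE7B and PRKAR1A, since CREM and PRKAR1A each have a pair of overlapping windows that share 1 copy of the motif. The full motif was in 0 of 24 windows of members called higher and 3 of 30 of those called lower. Those 3 are the window of CREB3L2 and the pair of PRKAR1A. Among the pathway genes outside the symbol rule, described below, 7 of 74 windows (9.46%) held the full motif. These belong to VGF and GPR3, called higher, CHGA, DUSP1 and PCSK1, not called, and GPR6 and SST, not tested. VGF, CHGA, DUSP1, PCSK1 and SST were put on the list as CREB targets, so its share cannot be compared with that of all genes. The half-site was in 26.7% of the members' windows, 24.6% of all windows and 31.3% of the windows of tested genes. The 6 listed starts of PDE4B, the member with the largest called rise, held neither motif, and 1 of 5 starts of PRKACB held the half-site. The windows of PRKAR1A and CREB3L2, both called lower, of CREM, not called, and of VGF, a neuropeptide gene described below that rose, are printed 5′ to 3′ with the full motif in capitals, to show its place relative to the start site. In the printed windows it begins 49 bases before the start in PRKAR1A, 179 in CREB3L2, 50 in CREM and 79 in VGF. Relative to the other listed start of the overlapping pair, the same copy begins at position 3, after the start, in PRKAR1A and in CREM. A match in these letters is not evidence of binding.
PRKAR1A (chr17:68512180-68512479, plus strand): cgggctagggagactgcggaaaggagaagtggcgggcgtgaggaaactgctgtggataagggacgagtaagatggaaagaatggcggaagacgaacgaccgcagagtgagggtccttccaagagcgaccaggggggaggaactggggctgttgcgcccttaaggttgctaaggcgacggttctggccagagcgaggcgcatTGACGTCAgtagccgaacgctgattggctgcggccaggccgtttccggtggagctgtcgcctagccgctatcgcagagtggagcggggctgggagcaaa
CREB3L2 (chr7:138002037-138002336, minus strand): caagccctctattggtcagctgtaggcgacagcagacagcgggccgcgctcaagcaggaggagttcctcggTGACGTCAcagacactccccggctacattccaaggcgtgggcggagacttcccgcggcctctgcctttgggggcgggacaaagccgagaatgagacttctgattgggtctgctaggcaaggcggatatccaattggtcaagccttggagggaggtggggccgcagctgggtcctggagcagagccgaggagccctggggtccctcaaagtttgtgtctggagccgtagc
CREM (chr10:35195652-35195951, plus strand): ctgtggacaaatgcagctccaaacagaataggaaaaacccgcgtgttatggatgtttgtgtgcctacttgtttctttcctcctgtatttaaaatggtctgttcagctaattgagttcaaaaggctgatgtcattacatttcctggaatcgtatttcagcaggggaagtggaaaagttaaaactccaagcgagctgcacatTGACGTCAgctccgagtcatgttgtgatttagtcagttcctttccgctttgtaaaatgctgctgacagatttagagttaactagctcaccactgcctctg
VGF (chr7:101165520-101165819, minus strand): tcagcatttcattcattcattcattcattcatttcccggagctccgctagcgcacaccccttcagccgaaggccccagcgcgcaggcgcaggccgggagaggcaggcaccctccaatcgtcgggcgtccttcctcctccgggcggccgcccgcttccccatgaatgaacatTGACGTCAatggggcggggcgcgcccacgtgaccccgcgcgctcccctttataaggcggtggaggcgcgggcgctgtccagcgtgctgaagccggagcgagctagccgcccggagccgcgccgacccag

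Genes of the pathway outside the symbol rule were taken from a list of receptors, G proteins, PKA inhibitors, other effectors, CRTC kinases and CREB targets. Of the 59 listed genes that were found, 44 were tested, and 9 were higher and 7 lower in CAMKV-KD, 36.4% called, with 36.3% called among all genes. Upstream, GNAS, which encodes the stimulatory G protein alpha subunit, averaged 1703 ± 10.3 CPM in CAMKV-KD and 1409.9 ± 13.3 CPM in Control (SD, n = 3), and rose by 0.27 (log2; adjusted p = 0.000328). GPR3, a receptor that raises cyclic AMP without added ligand, rose by 0.53, and ADRA2A, an inhibitory adrenoceptor gene, by 0.31 (log2), but the ADRA2A call survived the removal of CAMKV-KD 3 and of no other library. VIPR2, a receptor of vasoactive intestinal peptide, had 4.65, 4.07 and 3.61 CPM in CAMKV-KD against 10.6, 8.35 and 12.1 CPM in Control (log2 −1.33 ± 0.18, SE; adjusted p = 0.00397). ADRB1, a beta adrenoceptor gene, was at or below 1.01 CPM everywhere, and its call (log2 −1.22, adjusted p = 0.0487) was lost whichever library was dropped.

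PKIB, an inhibitor that binds free PKA catalytic subunits, was the PKA inhibitor gene that was called. It had 61.1, 56.8 and 51.0 CPM in CAMKV-KD libraries, against 187, 108 and 195 CPM in Control libraries (log2 −1.54 ± 0.25, SE; adjusted p = 0.00660), and was called in all 15 alternatives. PKIA was at −0.55 ± 0.22 (log2 ± SE; adjusted p = 0.113) and PKIG at −0.02. The groups did not overlap for PKIA, although it was not called, and overlapped for PKIG. SIK1, a kinase that restrains CRTCs and is itself a CREB target, had 15.8, 15.5 and 15.6 CPM in CAMKV-KD against 26.8, 26.8 and 28.7 CPM in Control (log2 −0.81 ± 0.063, SE; adjusted p = 0.000674). SIK2 was higher by 0.22 (log2; adjusted p = 0.0421), a call that survived the removal of CAMKV-KD 2 and of no other library. None of the 7 tested genes for other effectors and export, among them the exchange factors RAPGEF3 and RAPGEF4, was called.

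The CREB targets did not share a direction, with 5 of 18 tested genes higher and 3 lower, 44.4% called beside 36.3% of all tested genes. TH, the first enzyme of catecholamine synthesis, had 7.92, 12.3 and 12.2 CPM in CAMKV-KD against 1.53, 1.93 and 1.79 CPM in Control (log2 2.62 ± 0.23, SE; adjusted p = 0.000914). VGF had 92.1, 118 and 143 CPM in CAMKV-KD against 30.6, 32.8 and 20.4 CPM in Control (log2 2.07 ± 0.25, SE; adjusted p = 0.00252). NPY, EGR1 and JUNB rose by 0.89, 0.62 and 0.42. BDNF, a neurotrophin, had 2.79, 4.75 and 3.52 CPM in CAMKV-KD against 11.2, 11.5 and 9.60 CPM in Control (log2 −1.55 ± 0.22, SE; adjusted p = 0.00459). GEM, a small GTPase that inhibits calcium channels, had 6.87, 6.34 and 7.49 CPM in CAMKV-KD against 17.4, 18.5 and 17.6 CPM in Control (log2 −1.37 ± 0.096, SE; adjusted p = 0.000508). PER2, a clock gene, was at −0.70 (adjusted p = 0.0442), and its call survived the removal of Control 2 and of no other library. NR4A1, NR4A2, NR4A3 and FOS were not called and lay between −0.36 and 0.32 (log2). The groups did not overlap for NR4A2 and NR4A3, at −0.09 and −0.25 (log2), and overlapped for NR4A1 and FOS. CHGA, not called either, was at −1.09 (log2, adjusted p = 0.0563) with no overlap. SCG2 was at −1.69 (adjusted p = 0.346), with 8.16 to 154 CPM in CAMKV-KD and 37.0 to 334 CPM in Control. FOSB, DUSP1, PER1 and PCSK1 were not called, overlapped between the groups and lay between −0.55 and 0.71 (log2).

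**Figure D5:**
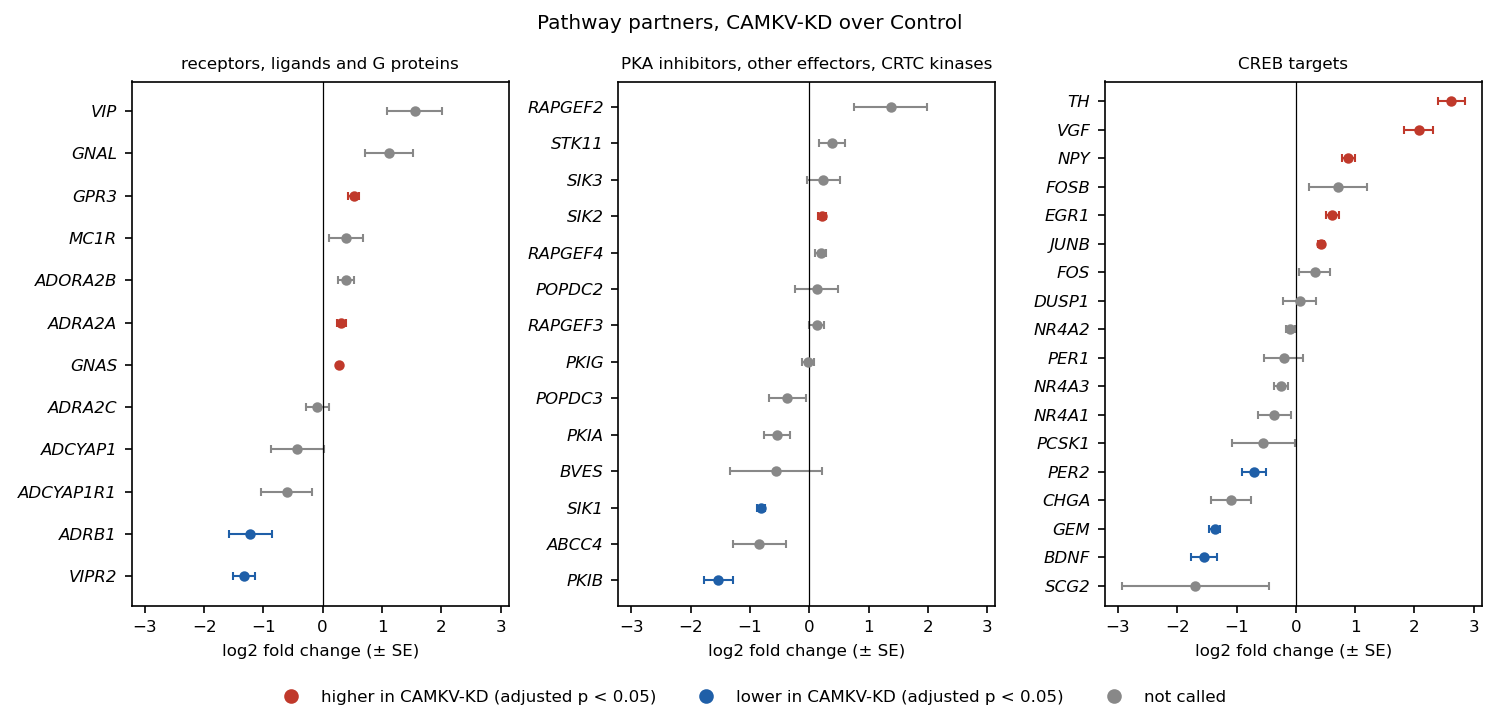
Log2 fold change (CAMKV-KD over Control, points, with SE bars) of the 44 tested pathway genes outside the symbol rule, on a common axis. TH and VGF are highest among the called genes at 2.62 and 2.07, and BDNF, PKIB, GEM and VIPR2, also called, lie between −1.55 and −1.33. SCG2, not called, has the lowest value at −1.69 with a wide bar (SE 1.24).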

How the data were processed

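The deposited values are unnormalized whole-number counts per gene in 6 libraries. The submitters' processing notes name HISAT2 2.1.0, StringTie 1.3.5 and FastQC 0.11.2 with build GRCh38.p13, and the series' design text names DESeq2 1.28.1. Strand setting, annotation release and counting step were not given in the sources used here. Thus a gene and an antisense partner cannot be told apart, and StringTie loci may split or merge neighbours. Where symbols repeated (126 entries), the entry with the highest mean count was kept. Counts were filtered with filterByExpr, scaled by TMM and tested with edgeR 4.0.16 (glmQLFit, glmQLFTest, group only) in R 4.3.3, with Benjamini-Hochberg adjustment over 13361 genes and calls at adjusted p under 0.05. SE is the absolute log2 fold change over the square root of F. The procedure was tested on simulated counts: it returned the simulated sizes of change with few false calls but missed many of the changed genes, and the first pass criterion, on the share of genes called, was not met and was replaced after that result was seen. A member that was not called is therefore not shown to be unchanged. Alternatives were 3 other scalings, 2 filters, DESeq2 1.42.0, limma-voom (limma 3.58.1), a replicate block, summed duplicate entries and leaving out each library. Exon lengths and overlaps came from GENCODE 29 (GRCh38) and promoter sequences from RefSeq. Levels per kb use the merged exons of a gene and are approximate. No 2 libraries held identical values, and the chi-square per degree of freedom of their counts was 41.5 to 52.1 within groups and 104.7 to 119.2 between groups. Floors of 3 counts cover counting error only. The assignment of members to role groups and subfamilies, level ratios, motif search and choice of plotted genes were added after values were seen. The members and lists were chosen with earlier results of these data known. Values in every library are given for called members with an absolute log2 fold change of at least 0.5 and for the largest called change in each role group. Called pathway partners are named by a change of at least 1. Others were named to account for the members or after their values were seen.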

Additional observations from a re-analysis of the deposited data

How the results depend on the processing

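Of the 25 called members, 17 were called with the same direction in all 15 alternatives, 8 lost the call in at least 1, and none reversed. The 8 were ADCY8 (with the replicate block only, adjusted p = 0.0573), AKAP6, CREB3, CREB3L1, CREBL2, PDE8A, PDE8B and PRKAR1A. Of the 34 members not called, 10 passed in at least 1 alternative and 10 changed sign in at least 1. Counts of called members ran from 8 to 13 higher and from 10 to 16 lower over the alternatives. Among all genes DESeq2 called 2789 higher and 2990 lower, and library totals 2811 and 2175. The replicate number as a block gave 8 members higher and 11 lower, 1523 of all genes higher and 1807 lower, and 5 pathway partners higher, where the fit without it gave 9. The higher partners that lost their calls there were ADRA2A, EGR1, GPR3 and SIK2. Same-numbered libraries did not deviate together (r = −0.010, −0.062 and −0.033 across genes), and none of the 6 libraries correlated best with its own number. The labels do not say whether same-numbered libraries shared a culture or batch. Deviations centred on 3 libraries per group cannot settle it. The sign changed for members near 0 or uneven between libraries, and the cause was not tested. With library totals ADCY5 was at 0.057, PDE2A at 0.030, PRKAR1B at 0.022 and PKIG at 0.043, and with upper-quartile scaling CREM was at −0.00701. In limma-voom PDE6B was at −0.21. With the replicate block ADCY3 was at 0.018, PDE10A at −0.50 and PDE6B at −0.11. Over fits without a library, ADCY3 lay between −0.69 and 0.67, ADCY5 between −0.12 and 0.13, ADCY6 between −0.46 and 0.16, ADCY7 between −1.05 and 0.071, CREB5 between −0.045 and 0.46, CREM between −0.096 and 0.15, PDE10A between −1.44 and 2.06, PDE2A between −0.13 and 0.076, PDE6B between −0.58 and 0.44, PRKAR1B between −0.36 and 0.44 and PKIG between −0.055 and 0.052. These values are log2 fold changes. ADCY8, PDE8B and CREB3L1 are among the members that rest on few counts, which limits their precision.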
